A study of Mus musculus with 6 samples.

Results

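The genes described here are the lysosome and glycan degradation genes of mouse thymocytes, taken as the rows of the deposited gene table that its KEGG column assigns to the pathways Lysosome or Other glycan degradation. Of 154 such rows, 6 were set aside by the rule (Cd68, Npc1, Npc2 and the Slc transporters Slc11a1, Slc11a2 and Slc17a5), which left 148 members of the 22322 genes in the table. Lysosome held 140 of them, Other glycan degradation held 18, and 10 stood in both. No measured value entered the rule.

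Messenger RNA of thymocytes that carry both CD4 and CD8 (double-positive or DP cells), sorted from mouse thymus, was sequenced to compare gene transcription with and without Paxbp1, a nuclear protein. Control libraries (n = 3) came from Paxbp1 fl/fl mice without Cre, and libraries labelled cKO (n = 3) came from Paxbp1 fl/fl Lckcre mice. Both groups thus carried the floxed allele on a C57BL/6 background, were untreated and were young animals a few weeks old of mixed sexes. The Lck promoter drives Cre in the T lineage from the early thymocyte stages on, and Cre removes 1 exon of Paxbp1, which the gene-level counts cannot show. The labels do not say whether the 3 libraries of a group came from separate mice, so the p-values measure the spread between these libraries, which may be technical.

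The libraries were sequenced to between 18963775 and 26252248 counts. On the CPM scale used here, which sets counts to a common library size after TMM scaling, a single count equals 0.0388 to 0.0521. Paxbp1 itself had 774, 318 and 400 counts in the control libraries and 851, 905 and 1075 in those labelled cKO, and was thus not lower under the cKO label (log2 fold change 0.92 ± 0.33, SE, adjusted p = 0.0977, edgeR). All 10 DP markers, among them Cd4, Cd8b1 and Rag1, were detected and tested, with a summed level of 8879 to 10550 CPM in control libraries and 6534 to 7831 CPM in those labelled cKO. In bulk RNA, fewer cells of a type and less RNA per cell cannot be told apart.

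Lysosomes are acidic organelles in which proteins, glycans, lipids and nucleic acids are taken apart. Their soluble enzymes are tagged with mannose 6-phosphate in the Golgi and carried by receptors, clathrin and adaptor complexes to endosomes, while a proton pump in the membrane keeps the lumen acidic. Many lysosomal genes share a short palindromic promoter motif, the CLEAR element, which is bound by the transcription factors TFEB and TFE3. In thymocytes, lysosomes also serve receptor turnover and autophagy.

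The CLEAR element was looked for because it is the best known sequence shared by lysosomal genes. RefSeq promoter windows on GRCm38.p6, from 250 bases before to 50 bases after the start, were found by symbol for 118 of the 148 members. The core CACGTG, its longer form TCACGTGA and the full element, TCACGTGA with a G before and a C after it, are nested palindromes, so that a match counts on both strands. The core stood in 25 windows of members (21.2%), against 8.09% of the windows of all 27025 genes and 11.9% of those of tested genes. TCACGTGA stood in 10 (8.47%, against 1.12% and 2.36%), and the full element in 2 (1.69%, against 0.37% and 0.852%). A match is a description of the letters and not a binding site. The sites below are those of the 4 members with TCACGTGA that passed the expression test, described further on, followed by both that hold the full motif, with TCACGTGA in capitals and 10 bases on either side, read on the gene's strand.
Ctsd, chr7:142387909-142387936, minus strand: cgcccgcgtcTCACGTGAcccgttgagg
Cd164, chr10:41519402-41519429, plus strand: gccgggctgcTCACGTGAccggcgcgcg
Ctsa, chr2:164833767-164833794, plus strand: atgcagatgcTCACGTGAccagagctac
Gla, chrX:134601183-134601210, minus strand: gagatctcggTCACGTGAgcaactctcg
Cln3, chr7:126583341-126583368, minus strand: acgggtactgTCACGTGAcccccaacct
Igf2r, chr17:12769697-12769724, minus strand: ccgactcaggTCACGTGAcgctccgggg

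The motif lay 99 bases before the start in Ctsd, 88 in Cd164 and 195 in Gla, and 5 bases after the start in Ctsa. The 250 bases before the start of Ctsd and of Gla are shown as a pair because the first was lower and the second higher in the libraries labelled cKO, with every CACGTG core in capitals, extended to TCACGTGA where it stands.
Ctsd, chr7:142387828-142388077, minus strand: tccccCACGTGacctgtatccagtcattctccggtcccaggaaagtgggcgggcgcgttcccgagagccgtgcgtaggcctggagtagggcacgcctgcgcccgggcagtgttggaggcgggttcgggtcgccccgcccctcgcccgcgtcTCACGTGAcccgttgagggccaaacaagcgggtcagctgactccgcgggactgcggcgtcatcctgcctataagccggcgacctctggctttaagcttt
Gla, chrX:134601006-134601255, minus strand: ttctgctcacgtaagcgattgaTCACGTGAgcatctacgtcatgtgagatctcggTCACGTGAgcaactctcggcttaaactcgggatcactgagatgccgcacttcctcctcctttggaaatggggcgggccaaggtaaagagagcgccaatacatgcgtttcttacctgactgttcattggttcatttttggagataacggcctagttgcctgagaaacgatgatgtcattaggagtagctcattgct
The Gla stretch held TCACGTGA at 2 places, and the Ctsd stretch held it at 1 place beside 1 shorter core. The motif thus stood before members of either direction. Of members called lower, 3 of 13 with a window held TCACGTGA, of those called higher 1 of 4, and of the tested members not called 6 of 76.

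Most lysosome and glycan degradation genes had a log2 fold change below 0 in the libraries labelled cKO, and for most of them the difference did not pass the test. Of the 148 members, 117 had enough counts to be tested, 9 had too few (at most 0.443 CPM on average), and 22 had no count in any library. The latter included the placental cathepsins Cts3, Cts6, Cts7, Cts8, Ctsj, Ctsm and Ctsq and the sperm hyaluronidases Spam1 and Hyal5. At an adjusted p below 0.05 (edgeR quasi-likelihood test, adjusted over all 11488 tested genes), 15 of the 117 were lower (12.8%) and 5 were higher (4.27%). Among all tested genes 5.89% were lower and 4.47% higher. DESeq2 called 21 lower and 6 higher, where 8.59% and 8.3% of all genes were, and limma-voom 17 and 5, where 6.24% and 5.22% were. The members called lower rested on many counts, with a median of 176.9 CPM against 38.96 CPM for all tested members. Among genes with a mean of at least 5 CPM, 15 of 102 members were lower and 5 higher, where 7.63% and 6.79% of all such genes were.

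Libraries labelled cKO minus control, the tested members had a median log2 difference of -0.21, and all tested genes one of -0.0017. It lay below 0 for 85 of the 117 (72.6%), against 50.2% of all tested genes. In 40 members (34.2%) all 3 libraries labelled cKO lay below all 3 control libraries, against 17.3% of all tested genes, and in 8 (6.84%) they all lay above, against 15.7%. All 20 called members were among these. Summed over the members, the share of a library's counts was 1.168%, 1.257% and 1.189% in the control libraries and 0.978%, 1.039% and 0.9855% in those labelled cKO, so that the groups did not overlap. With a log2 fold change beyond 1 as a further condition, 3 members were higher (Ctss, Lgmn and Atp6v0d2), where 1.53% of all tested genes were. Under the same condition 1 was lower (4930486L24Rik), where 1.23% were. Atp6v0d2, counted among the members called higher, passed the count filter only through the libraries labelled cKO.

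**Figure D1:**
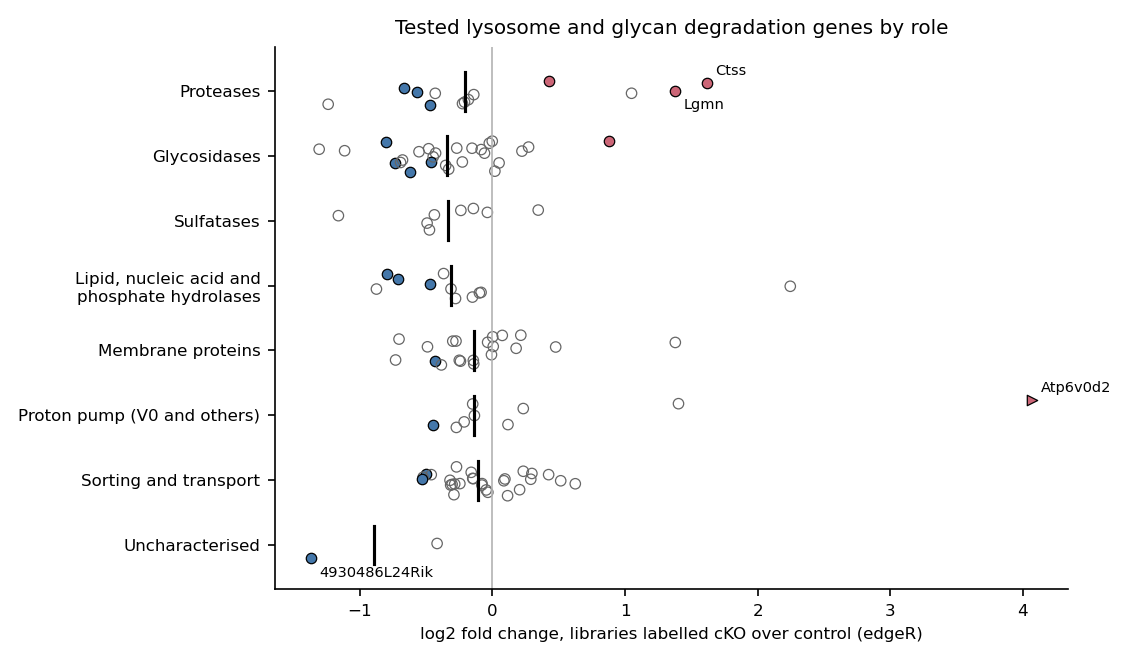
Log2 fold change (libraries labelled cKO minus control, edgeR) of each tested member by role, with 1 point per gene, filled where the adjusted p is below 0.05, and a bar at the median of each role. The median lies below 0 in every role. Atp6v0d2, without a count in the control libraries, is drawn as a triangle at its lower bound of 4.07.

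By role, 14 of the 20 calls fell on the enzyme roles. These also hold the activator proteins Psap, which was called lower, and Gm2a, which was not called. The enzyme roles are proteases, glycosidases, sulfatases, and lipid, nucleic acid and phosphate hydrolases. Of their 58 tested genes, 10 were called lower and 4 higher, at a median log2 difference of -0.30. Of 57 tested membrane, proton pump and sorting genes, 4 were lower and 1 higher, with a median of -0.14. As shares, 17.2% of the genes in the enzyme roles were called lower and 6.9% higher. For the membrane, pump and sorting genes the shares were 7.02% and 1.75%. Among all tested genes 5.89% were lower and 4.47% higher, so the 7.02% was near the share over all genes. Whether these roles differ was not tested.

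Glycosidases, which remove sugars from glycoproteins and glycolipids, had 26 tested members of 32, of which 4 were called lower and 1 higher (median log2 fold change -0.34). The shares were 15.4% and 3.85%, against 5.89% and 4.47% among all tested genes. Gba2, a glucosylceramidase that acts outside the lysosome, had 119, 124 and 111 CPM in the control libraries and 71.3, 80.7 and 77.8 CPM in those labelled cKO. It fell to 65.0% of control, with no overlap between groups (log2 fold change -0.62 ± 0.12, SE, adjusted p = 0.0116). Man2c1, a cytosolic alpha-mannosidase that trims free oligosaccharides, had 35.0, 28.6 and 26.8 CPM against 21.0, 15.7 and 15.2 CPM (-0.80 ± 0.20, adjusted p = 0.0307). Glb1, the lysosomal beta-galactosidase, had 81.7, 101 and 83.9 CPM against 65.6, 63.1 and 64.5 CPM (-0.46 ± 0.13, adjusted p = 0.0467). In each of these the lowest control library lay above the highest library labelled cKO, and in the authors' FPKM the groups of Man2c1 overlapped (8.69 FPKM in control replicate 3 and 8.81 FPKM in replicate 1 labelled cKO).

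Gla, the alpha-galactosidase A that removes galactose from globotriaosylceramide, went the other way. It had 12.5, 10.3 and 11.3 CPM in the control libraries and 23.1, 15.5 and 23.8 CPM in those labelled cKO, of which replicate 2 lay nearest to control (log2 fold change 0.88 ± 0.22, adjusted p = 0.0347). The hexosaminidase subunit Hexa, which serves in the breakdown of GM2 ganglioside, had 26.1, 35.5 and 31.5 CPM against 29.0, 32.3 and 30.2 CPM with overlapping groups and was not called (-0.02 ± 0.16, adjusted p = 0.949). The sialidase Neu1 lay apart but was not called (68.0, 59.6 and 55.5 CPM against 53.5, 49.4 and 49.0 CPM, -0.27 ± 0.14, adjusted p = 0.227). Of the 16 tested members annotated to Other glycan degradation, 15 had a log2 fold change below 0 and 4 were called lower (Gba2, Glb1 and Man2c1 among them), with a median of -0.39 and none higher. None of these 16 was higher in DESeq2 or limma-voom either, or at an unadjusted p below 0.05.

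The 8 sulfatase genes, among them the activator Sumf1, serve to remove sulfate from glycosaminoglycans and sulfatides. They were all tested and none was called in either direction by edgeR, DESeq2 or limma-voom. At an unadjusted p below 0.05, 2 were lower and 0 higher in edgeR. Arsb had at most 1.25 CPM in any library, and its difference had no stable sign (0.35 ± 1.26, adjusted p = 0.893).

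**Figure D2:**
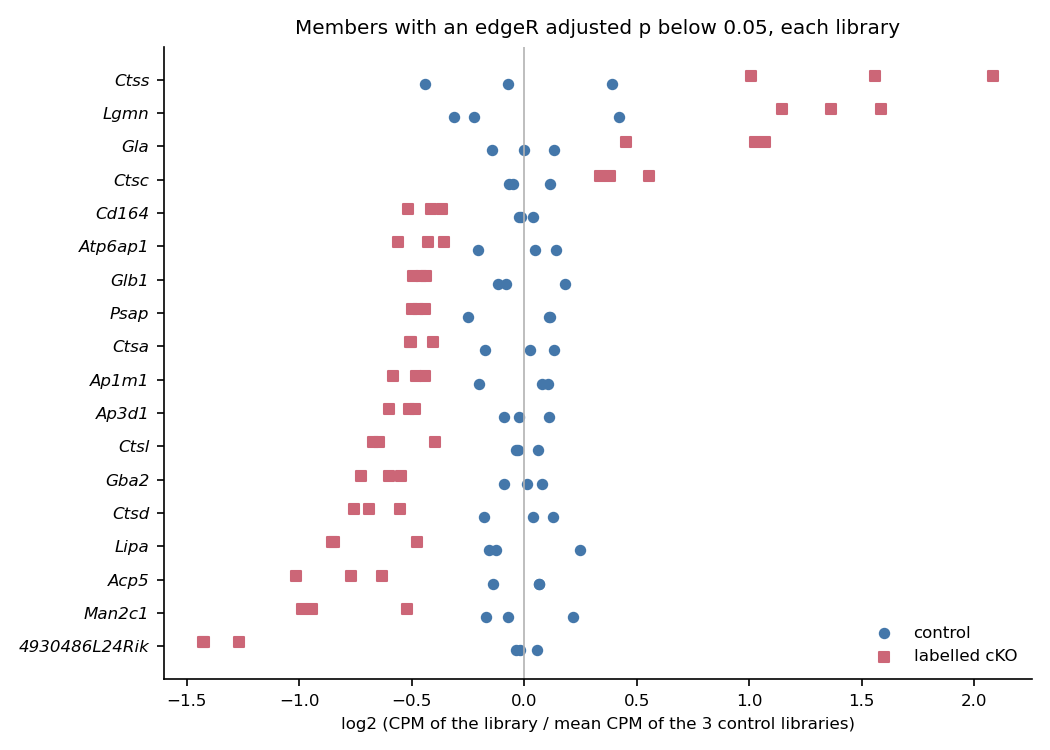
Log2 of the CPM of each called member in each of the 6 libraries over the mean of the 3 control libraries, with 1 point per library, for control libraries and those labelled cKO. In every gene shown all 3 libraries of one group lie on the same side of the other group, 14 genes with the libraries labelled cKO below and 4 with them above. Atp6v0d2, at 0 in the control libraries, and 1 further called member are left out.

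Proteases showed calls in both directions, 3 lower and 3 higher of 13 tested members, at a median log2 difference of -0.21. That is 23.1% in each direction, against 5.89% lower and 4.47% higher among all tested genes. Ctsd, the main aspartic protease of lysosomes, had 699, 659 and 565 CPM in the control libraries and 397, 436 and 379 CPM in those labelled cKO, or 63.1% of control (-0.67 ± 0.12, adjusted p = 0.00968). The cysteine protease Ctsl, which in thymus is best known for cleaving invariant chain in cortical epithelium, had 301, 283 and 281 CPM against 184, 218 and 180 CPM (-0.57 ± 0.12, adjusted p = 0.0159). Ctsa, the protective protein that keeps beta-galactosidase and Neu1 stable, was named after its values were seen, and had 238, 293 and 273 CPM against 189, 202 and 188 CPM (-0.47 ± 0.12, adjusted p = 0.0314). These 3 ranked 5, 8 and 11 among the members in mean FPKM, and their groups did not overlap. Exons annotated to other genes cover 34.4% of the exonic length of Ctsd, 26.9% of that of Ctsl and 17.4% of that of Ctsa, so a part of their counts may belong to those genes.

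The 3 cysteine proteases that rose had lower levels in FPKM than the 3 proteases that fell. Ctss, an endoprotease of antigen-presenting cells, had 3.06, 4.22 and 2.37 CPM in the control libraries and 13.6, 6.46 and 9.46 CPM in those labelled cKO, which is 3.07-fold (1.62 ± 0.37, adjusted p = 0.0234). Lgmn, the asparaginyl endopeptidase that activates cathepsins, had 4.25, 2.73 and 2.56 CPM against 7.03, 8.18 and 9.56 CPM, which is 2.60-fold (1.38 ± 0.33, adjusted p = 0.0293). Both were low in the control libraries, and replicate 1 labelled cKO was the highest for Ctss but the lowest of its group for Lgmn. Ctsc, the dipeptidyl peptidase that activates granule serine proteases, had 95.5, 85.3 and 84.2 CPM against 115, 111 and 130 CPM (0.43 ± 0.12, adjusted p = 0.0497), and was not called without the filter on low counts (adjusted p = 0.0594). Ctsb, an abundant cysteine protease, had 358, 427 and 410 CPM against 348, 355 and 352 CPM and was not called (-0.18 ± 0.11, adjusted p = 0.313).

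Macrophages and dendritic cells are rich in Ctss and Lgmn, and some of their markers were higher in the libraries labelled cKO. Of 20 macrophage markers, 11 were tested and 4 were higher (Adgre1, C1qb, C1qc and Cd68), at a median log2 difference of 2.04. DESeq2 and limma-voom each called 6 higher. Among all tested genes, edgeR, DESeq2 and limma-voom called 4.47%, 8.3% and 5.22% higher. The macrophage markers summed to 20.6 to 37.5 CPM in control libraries and 60.4 to 86.3 CPM in those labelled cKO. Adgre1, which encodes F4/80, had 0 counts in all control libraries and 2.28, 2.19 and 2.40 CPM in the others, and so passed the count filter only through the libraries labelled cKO. Csf1r had 1.23 to 1.98 CPM against 1.51 to 2.63 CPM, and Marco, Mertk and Vsig4 were at 0 in all 6. Of 12 dendritic cell markers, 6 were tested and 2 were higher (Cd74 and H2-Aa). The others tested (Cst3, H2-Ab1, Flt3 and Zbtb46) overlapped between groups and were not called. The list summed to 114.5 to 161.8 CPM against 166.7 to 219.2 CPM. Cst3 made up the largest part of that sum, at 91.6 to 114.9 CPM against 91.6 to 103.8 CPM. Cd74 had 9.60 to 17.9 CPM against 33.4 to 68.4 CPM. The part of these cells in the rise of Ctss, Lgmn and the pump subunit Atp6v0d2 was not tested.

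**Figure D3:**
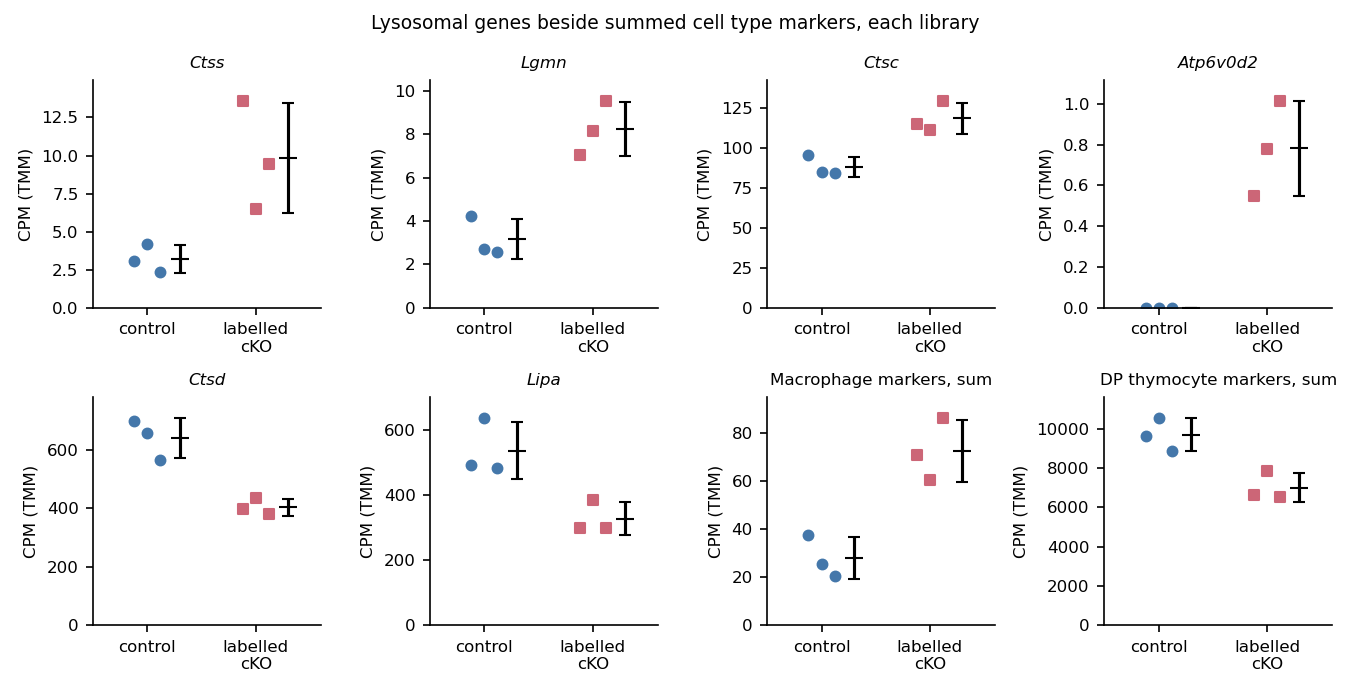
Levels (CPM, TMM-scaled) of 6 called members and of the summed macrophage and DP markers in the control libraries and those labelled cKO, with 1 point per library and mean ± SD (n = 3). The summed macrophage markers lie at 20.6 to 37.5 CPM in control libraries and at 60.4 to 86.3 CPM in the others, and the summed DP markers at 8879 to 10550 and at 6534 to 7831 CPM.

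The role of hydrolases of lipids, nucleic acids and phosphate esters, which also holds the activators Psap and Gm2a, had 11 tested members. In edgeR 3 were called lower, or 27.3%, against 5.89% of all tested genes (median fold change -0.31 on the log2 scale). None was called higher in edgeR, DESeq2 or limma-voom. At an unadjusted p below 0.05, 1 was higher. Acp5, the tartrate-resistant acid phosphatase, had 149, 172 and 172 CPM in the control libraries and 96.2, 106 and 81.3 CPM in those labelled cKO, or 57.6% of control. It had the lowest adjusted p of all members (-0.80 ± 0.13, adjusted p = 0.00825). Lipa, the acid lipase that frees cholesterol from its esters, had 491, 636 and 481 CPM against 297, 385 and 298 CPM (-0.72 ± 0.15, adjusted p = 0.0174). Psap, the precursor of the saposins that hold sphingolipids up to their hydrolases, had 196, 253 and 252 CPM against 165, 168 and 172 CPM (-0.47 ± 0.13, adjusted p = 0.0407). The highest library labelled cKO lay below the lowest control library in all 3, for Lipa by the widest margin in CPM. Dnase2a, the acid nuclease that macrophages use on engulfed DNA, had 0, 0.514 and 0.272 CPM against 0.776, 1.93 and 1.11 CPM, a large but imprecise difference that was not called (2.25 ± 0.99, adjusted p = 0.173).

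Membrane proteins of the lysosome gave 1 call, a lower one, among 20 tested members (median log2 fold change -0.14). That is 5.0%, near the 5.89% called lower among all tested genes. Cd164, a sialomucin of endosomes and lysosomes, had 913, 918 and 952 CPM in the control libraries and 721, 696 and 647 CPM in those labelled cKO (-0.43 ± 0.10, adjusted p = 0.0261). Lamp1 and Lamp2, the main coat glycoproteins of the lysosomal membrane, differed by 0.07 ± 0.11 and 0.01 ± 0.13 with overlapping groups (adjusted p = 0.702 and 0.985). Lamp1 had 287, 294 and 320 CPM against 302, 325 and 323 CPM, and Lamp2 had 102, 135 and 124 CPM against 117, 126 and 119 CPM. The calcium channel Mcoln1 and Laptm5, which promotes receptor degradation in lymphocytes, lay below control in all 3 libraries without passing the test. Mcoln1 had 57.7, 53.9 and 58.7 CPM against 42.6, 45.8 and 42.1 CPM (-0.39 ± 0.13, adjusted p = 0.0835), and Laptm5 had 1251, 1569 and 1482 CPM against 1108, 1227 and 1160 CPM (-0.30 ± 0.11, adjusted p = 0.120). The tetraspanin Cd63 was scarce, at 0.778, 0.823 and 0.233 CPM against 1.92, 1.77 and 1.06 CPM (1.38 ± 0.71, adjusted p = 0.241). Entpd4 and Entpd4b are near-identical copies whose reads may have been split between them, and neither was called.

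The proton pump had 9 tested members, most of them of its membrane part. Atp6v0d2, a subunit used by osteoclasts and macrophages, had no count in any control library and 0.548, 0.781 and 1.02 CPM in those labelled cKO (12, 15 and 22 counts), which is at least 16.8-fold higher against a floor of 3 counts over the control group (0.0465 CPM). It was called higher (adjusted p = 0.0219) and passed the count filter only through the libraries labelled cKO. Atp6ap1, an accessory subunit named after its values were seen, went down from 177, 225 and 211 CPM to 138, 159 and 152 CPM (-0.45 ± 0.13, adjusted p = 0.0481). The pore subunit Atp6v0c overlapped between groups, at 300, 360 and 360 CPM against 288, 318 and 322 CPM (-0.14 ± 0.12, adjusted p = 0.487). Of 8 further pump genes outside the pathway annotation used here, 7 of the cytosolic V1 part and the membrane accessory Atp6ap2, all were tested and 2 were lower (Atp6v1d, -0.58, adjusted p = 0.0113, and Atp6v1g1, -0.43, adjusted p = 0.0466) and none higher in edgeR, DESeq2 or limma-voom, with 1 higher at an unadjusted p below 0.05.

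Sorting and transport genes carry new enzymes from the Golgi to endosomes. Of 28 tested, 2 were called lower, with none higher in edgeR and 1, Gga2, in DESeq2 (median log2 fold change -0.11). The share called lower was 7.14%, near the 5.89% among all tested genes. At an unadjusted p below 0.05, 2 sorting genes were higher. Ap3d1, the delta subunit of the AP-3 adaptor, had 192, 175 and 167 CPM in the control libraries and 117, 125 and 127 CPM in those labelled cKO (-0.53 ± 0.11, adjusted p = 0.0173). Ap1m1, a subunit of the AP-1 adaptor of the trans-Golgi network that was named after its values were seen, had 205, 249 and 254 CPM against 158, 174 and 169 CPM (-0.50 ± 0.12, adjusted p = 0.0292). Neither pair of groups overlapped. Ap3b1 (-0.46 ± 0.14, adjusted p = 0.0579) and Ap3s1 (-0.32 ± 0.12, adjusted p = 0.103), further AP-3 subunits, lay below control in all 3 libraries without a call. The mannose 6-phosphate receptors Igf2r (-0.32 ± 0.15) and M6pr (-0.08 ± 0.11) and the phosphotransferase Gnptab that makes their tag (-0.27 ± 0.16) were not called. The clathrin light chain Clta (0.11 ± 0.15) and the AP-1 subunit Ap1g1 (0.30 ± 0.14) lay slightly above 0 and were not called either.

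Of 6 uncharacterised members, 2 were tested and 1 was called. The locus 4930486L24Rik (chr13:60842612-60864475 on GRCm38, minus strand) had 4.77, 4.83 and 5.09 CPM in the control libraries and 1.83, 1.82 and 2.03 CPM in those labelled cKO (-1.37 ± 0.38, adjusted p = 0.0466). The libraries of each group lay close together, and 88.6% of its exonic length is shared with Gm49392 and Gm49393, so its counts are uncertain.

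Levels between genes were compared per length, in the authors' FPKM. The most abundant members were Laptm5 (870 ± 95.5 FPKM in control libraries, mean ± SD, n = 3, and 696 ± 47.9 in those labelled cKO), Ap3s1 (478 ± 49.7 and 388 ± 11.8), Cd164 (444 ± 8.88 and 332 ± 8.77), Atp6v0c (286 ± 24.8 and 264 ± 15.4) and Ctsd (300 ± 36.1 and 191 ± 15.1). By these means Ctsd was the most abundant enzyme, above the pump subunit Atp6v0c in the control group and below it in the group labelled cKO. The control libraries did not all show that order, since replicate 3 had 260.7 FPKM of Ctsd and 298.6 FPKM of Atp6v0c. Ctss at 2.35 ± 0.683 and 7.31 ± 2.66 FPKM and Lgmn at 1.67 ± 0.519 and 4.43 ± 0.625 FPKM stayed far below Ctsd in both groups.

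**Figure D4:**
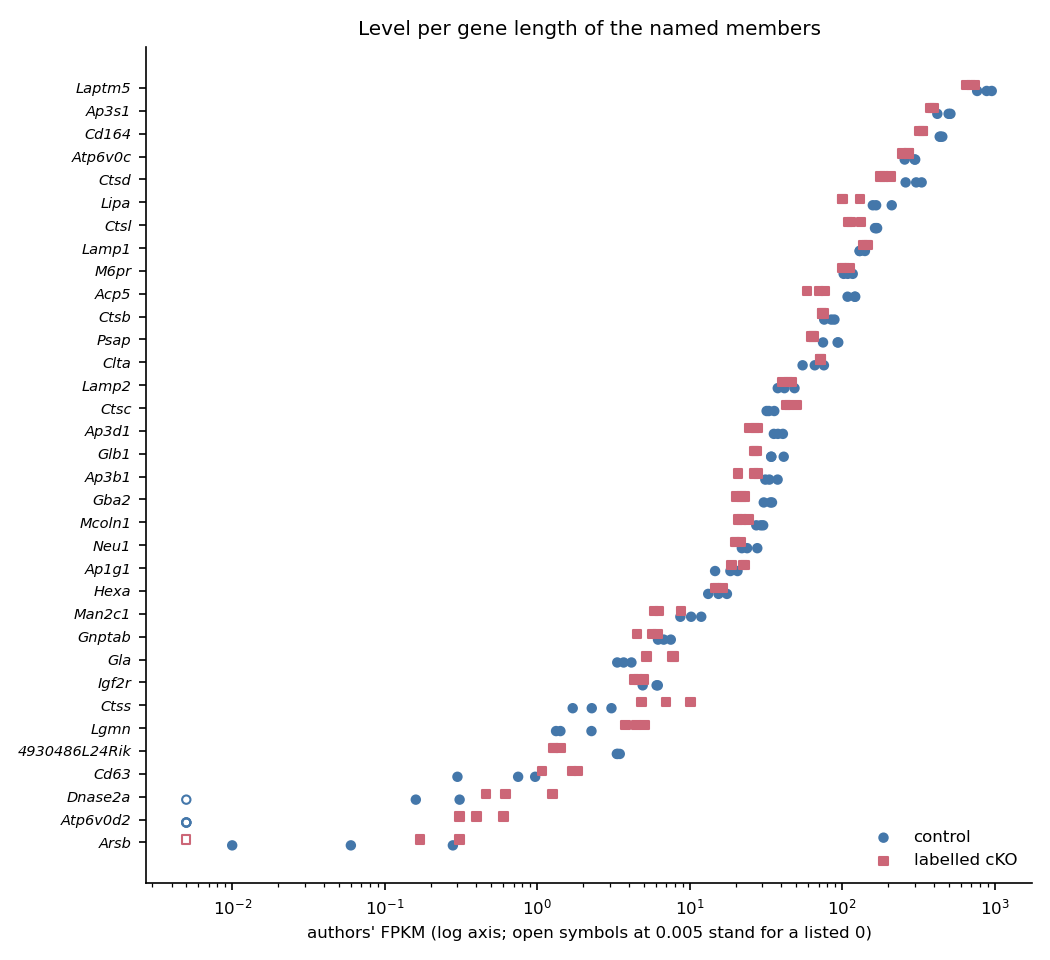
Authors' FPKM (log axis) of the named members in each control library and each library labelled cKO, with 1 point per library, ordered by mean level. Laptm5 leads with group means of 870 and 696 FPKM, and open symbols at 0.005 stand for a gene listed at 0.

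Of 17 tested lysosome biogenesis regulators, a list outside the pathway annotation, 1 was higher and 1 lower (median log2 fold change 0.10). Each is 5.88% of the list, near the 4.47% higher and 5.89% lower among all tested genes. Tfe3, which activates genes with the motif shown above, had 13.3, 14.2 and 9.40 CPM in the control libraries and 30.1, 18.9 and 27.7 CPM in those labelled cKO (1.05 ± 0.24, SE, adjusted p = 0.0239), with no overlap. Its relative Tfeb overlapped between groups (0.47 ± 0.49, SE, adjusted p = 0.576). Rragc, a subunit of the GTPases that recruit mTORC1 to the lysosome, was lower (-0.96 ± 0.26, SE, adjusted p = 0.0446). Of 4 tested genes in a list of protease inhibitors, Serpinb6a was lower (-0.77 ± 0.16, SE, adjusted p = 0.0169). It encodes a serpin and not a cystatin. None of the list was higher in edgeR, DESeq2 or limma-voom or at an unadjusted p below 0.05. The inhibitors of cysteine proteases that were tested, Cst3, Cstb and Cst7, overlapped between groups and were not called. Cst3, the main secreted inhibitor, differed by -0.12 ± 0.13 (SE, adjusted p = 0.593).

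Some markers of the sorted and other thymic cells moved too, and their part in the lower levels of the members was not tested. Among all tested genes, edgeR called 5.89% lower and 4.47% higher, DESeq2 8.59% and 8.3%, and limma-voom 6.24% and 5.22%. Of the 10 DP markers, 3 were lower (Rag1, Cd1d1 and Cd8b1), at a median log2 difference of -0.39, and none was higher in edgeR, DESeq2 or limma-voom or at an unadjusted p below 0.05. DESeq2 called 5 DP markers lower and limma-voom 4, and 6 were lower at an unadjusted p below 0.05 in edgeR. Of 7 tested markers of double-negative and immature single-positive thymocytes, the stages before DP, 3 were higher (Hes1, Il2ra and Dtx1). Another 3 (Kit, Notch3 and Lyl1) had a log2 fold change below 0 and were not called. The list summed to 162.3 to 185.6 CPM against 246.9 to 266.6 CPM. Notch1 made up the largest part of that sum and was not called (0.25 ± 0.12, SE, adjusted p = 0.211). Of 7 tested mature single-positive markers 1 was higher, Cd69, although its groups overlapped. In that list 5 had a log2 fold change below 0, and the summed levels overlapped. B cell markers summed to 948.6 to 1304 CPM against 872.5 to 914.1 CPM, with 1 of 4 tested lower. Thymic epithelial markers summed to 32.9 to 36.2 CPM against 25.97 to 32.39 CPM, with 1 of 4 tested lower, Cldn4 (12.9, 13.9 and 19.5 CPM against 8.90, 8.28 and 6.51 CPM). Others of that list lay higher without a call, Ccl25 at 5.28 to 5.97 CPM against 6.76 to 11.03 CPM (0.68 ± 0.28, SE, adjusted p = 0.146) and Prss16, too low to be tested, at 0 against 0.411 to 0.781 CPM. Erythroid markers overlapped (27.5 to 141.1 CPM against 1.92 to 48.8 CPM) with none called in 5 by edgeR, DESeq2 or limma-voom, 0 at an unadjusted p below 0.05 in edgeR, and no neutrophil marker had enough counts to be tested.

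The number of calls depended on single libraries. Leaving out replicate 3 labelled cKO ended all 20 calls in edgeR, with 29 members lower and 6 higher at an unadjusted p below 0.05, and over all genes it took the share called lower from 5.89% to 0.666% and the share called higher from 4.47% to 0.359%. Leaving out control replicate 1 gave 23 lower and 6 higher members, where 8.68% and 8.42% of all genes were called. Without control replicate 2 there were 2 lower and 1 higher, where 1.98% and 1.5% of all genes were. Without control replicate 3 there were 8 and 0 (2.98% and 2.42% of all genes), without replicate 1 labelled cKO 3 and 0 (2.45% and 1.53%), and without replicate 2 labelled cKO 6 and 2 (3.5% and 2.81%). At an unadjusted p below 0.05, 6 members were higher without control replicate 3 and 9 without replicate 1 labelled cKO. Acp5 and Ctsd were called lower in 5 of the 6 fits and lost only without replicate 3 labelled cKO (adjusted p = 0.0543 and 0.0680). No called member changed sign in any of the 6 fits, and 4930486L24Rik was called in none of them.

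**Figure D5:**
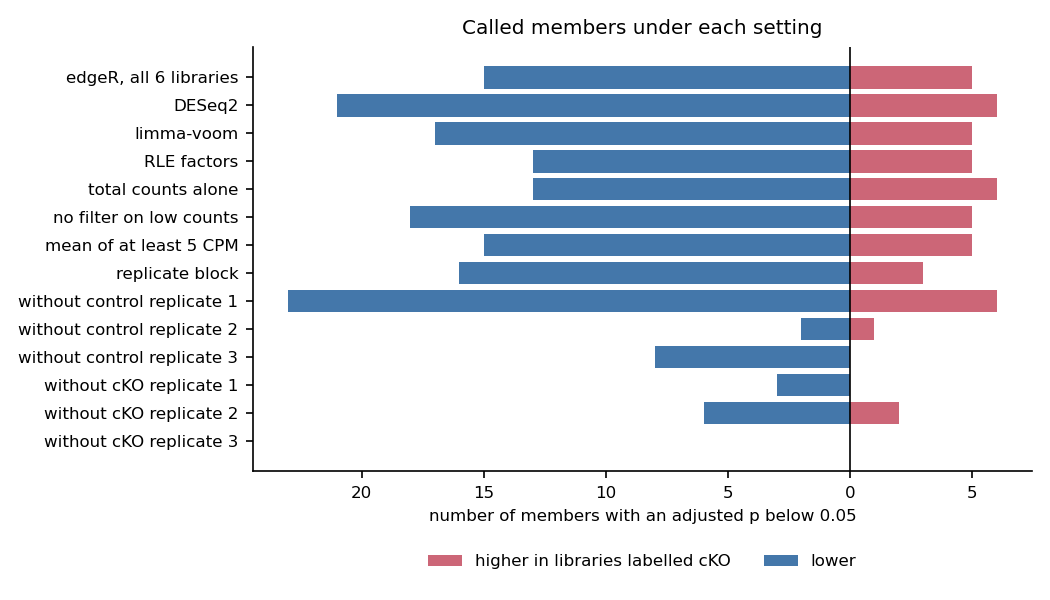
Number of members called higher and lower (adjusted p below 0.05) under the reported test and each alternative. Bars to the left count members lower in the libraries labelled cKO and bars to the right those higher. Other tools, scalings and filters give 13 to 21 lower and 5 to 6 higher, the replicate block gives 16 and 3, and leaving out 1 library gives 0 to 23 lower and 0 to 6 higher.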

How the data were processed

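The authors deposited 1 table with a row per gene. Its count columns hold the reads per gene of each library, not normalized, and its FPKM columns hold the authors' values per gene length and library size. The authors' group means, log2 ratios, p-values and FDR in the deposited table are their own comparison and were not used. The submitters' processing notes name fastp 0.18.0, Bowtie2 2.2.8, HISAT2, StringTie 1.3.1 and RSEM. The genome build, annotation and strand setting are not stated in the sources at hand, and the labels and the methods name different library kits.

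The counts were compared between 3 control libraries and 3 labelled cKO with edgeR 4.0.16 in R 4.3.3 (TMM, genes kept by filterByExpr at 10 counts and a total of 15, quasi-likelihood test, genotype as the only term). Benjamini-Hochberg adjustment ran over all 11488 tested genes of 15349 with a count. CPM are TMM-scaled, and SE is that of the log2 fold change. Floors cover counting error only. No pair of libraries of a group was a duplicate (chi-square per degree of freedom of 19.8 to 68.3). The script was tested on simulated counts. Alternatives were DESeq2 1.42.0, limma 3.58.1 (voom), RLE factors, total counts alone, no filter, a mean of at least 5 CPM, a replicate block, each library left out in turn, and other memberships. Exon overlaps were computed from GENCODE M21 (GRCm38) through the Ensembl identifiers.

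The members, gene lists and roles were chosen with earlier results of these data known. Named were members past a log2 fold change of 1 in size and an adjusted p below 0.05, up to 8 further called members with the largest rise and 8 with the largest fall, a fixed list, and the 5 of highest FPKM. The names of Ctsa, Ap1m1, Atp6ap1 and the members named only for a count or an annotation fall outside this rule. Values of 2 members that this rule names are not reported here.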

Additional observations from a re-analysis of the deposited data

How the results depend on the processing

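DESeq2 and limma-voom kept all 20 called members, and DESeq2 added 7 (Gga2 higher and Ap3b1, Asah1, Ctse, Man2b2, Ppt1 and Tpp1 lower). RLE factors and total counts alone lost Atp6ap1 and Glb1, no filter on low counts lost Ctsc (adjusted p = 0.0594), and a mean of at least 5 CPM left out Atp6v0d2 and 4930486L24Rik. The direction of the median was kept under every setting. The count of members lower past a log2 fold change of 1, which was 1, was 3 with DESeq2, 2 with limma-voom and 3 without a filter on low counts. The median of -0.21 was -0.17 without that filter, where the uncharacterised genes had a median of 0.99, -0.18 over Lysosome rows only and -0.39 over Other glycan degradation rows only. In the latter, of 16 tested genes, 4 were lower, 0 higher, and 0 passed the fold in either direction.

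Leaving out 1 library gave 0 to 23 lower and 0 to 6 higher members, 0 to 1 lower and 0 to 3 higher past the fold, and medians from -0.24 to -0.17. Every such fit has fewer samples. Among genes not called, the sign turned for Arsb (-0.30 with limma-voom, and from -0.54 to 2.01 over the fits without 1 library), Clta (-0.011 to 0.24), Hexa (-0.14 to 0.080) and Lamp2 (-0.0033 without a filter, and from -0.10 to 0.093).

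With the replicate number as a block, 3 members were higher and 16 lower. Atp6v0d2, Ctsc, 4930486L24Rik and Glb1 were lost, and Ap3b1, Ctse and Ppt1 were gained. The numbers do not pair the samples, since same-numbered libraries deviated with correlations of 0.0451, 0.0377 and -0.0300 across genes, and not every library correlated best with its own number. Depth limited the scarce members, of which 9 with a count were too low to be tested (at most 0.443 CPM on average), and the common coefficient of variation between libraries was 0.228.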
